A study of Homo sapiens with 12 samples.

Results

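The changes of RNA levels that went with 1 hairpin, shCREBBP.3753, were described across genes and pathways in MD901 cells. The comparison took the 3 libraries of shCREBBP.3753 against the 3 libraries of a scramble hairpin, 6 of the 12 libraries of the study, and the members were chosen by these labels alone. Of 24181 rows in the table, each an assembled gene locus, 11757 had a mean of at least 1 over the 12 libraries and were tested. MD901 is an established human cell line from a diffuse large B-cell lymphoma of germinal centre type in which CREBBP is wild type, and the study asked how loss of CREBBP changes gene expression. The libraries with shCREBBP.3753 came from MD901 cells that carried a short hairpin RNA against CREBBP. The other hairpins against CREBBP, shCREBBP.1027 and shCREBBP.572, were carried by the same line in 3 libraries each. The scramble libraries came from MD901 cells with a control hairpin. All 12 libraries were of total RNA over 200 nt from cells grown in IMDM with serum. Whether the replicates were separate cultures is not in the labels, and p-values therefore reflect the scatter among libraries alone, which can be technical. All cells are of 1 line, so the spread does not cover other lymphomas.

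CREBBP and its relative EP300 are acetyltransferases that add acetyl groups to histones at enhancers and promoters and serve as coactivators for many transcription factors, among them STAT proteins, p53, E2F and NF-kappaB. In germinal centre B cells CREBBP works against the repressor BCL6 and its corepressors, and its gene is often mutated in follicular and diffuse large B-cell lymphoma. Interferons signal through receptors, JAK kinases and transcription factors that include STAT2 and IRF9, which switch on a large set of antiviral genes through a promoter motif called the interferon-stimulated response element, ISRE. Progress from the G1 phase into DNA replication depends on E2F factors and is held back by CDK inhibitors such as CDKN1A, a target of p53.

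Levels are in FPKM, fragment counts scaled by gene length and library size, and differences are on the log2(FPKM + 1) scale as shCREBBP.3753 minus the group named, ± SE, which understates changes of rows with low levels. A row was called at a Benjamini-Hochberg adjusted p under 0.05 in limma, fitted on all 12 libraries with 1 mean per group. The 3 libraries of shCREBBP.3753 resembled each other closely, with a mean Spearman correlation of each with the others of 0.984 to 0.985 across rows, and the scramble libraries less, with 0.942 to 0.959. Scramble replicate 1 had the lowest of these and held higher levels of EP300, FASN, ZMIZ1 and MKI67 than the other scramble libraries. The differences of these 4 genes are given with and without it. Scramble replicate 3 summed to 4978528 FPKM, against 690196 to 722976 FPKM with shCREBBP.3753. Its upper quartile of 10.7 FPKM was near the 10.3 and 10.7 FPKM of scramble replicates 1 and 2. That quartile was 10.8 to 10.9 FPKM with shCREBBP.3753, so the larger sum lay in the highest rows of scramble replicate 3. The depth of scramble replicate 3 relative to scramble replicate 1 was 3.62, against 1.31 to 2.01 with shCREBBP.3753. The absolute depth is unknown, and an exact 0 can be a failed estimate. B-cell markers summed to 456 to 482 FPKM with shCREBBP.3753, against 284 to 351 FPKM in scramble, but CD22 was near 0, with none in shCREBBP.3753 libraries. Markers of other cell types were mostly under 1 FPKM: 14 of 16 for T and NK cells, 10 of 12 for myeloid cells and 10 of 12 for fibroblasts and epithelium. CD3D, CD2, GNLY, S100A8, TYROBP, COL3A1, DCN and EPCAM were at 0 in all 6 libraries. The T and NK sum of 41.0 to 42.7 FPKM with shCREBBP.3753, against 33.8 to 40.3 FPKM in scramble, was mostly the perforin gene PRF1, which was not called (log2 difference 0.21 ± 0.09, adjusted p = 0.0965).

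CREBBP itself (hg19, chromosome 16, 3775056 to 3930121) stood at 5.92, 6.16 and 6.1 FPKM in the libraries labelled shCREBBP.3753 and at 13.7, 7.1 and 5.82 FPKM in scramble. The groups overlapped, since scramble replicate 3 was below every shCREBBP.3753 library. The log2 difference was -0.40 ± 0.21 (adjusted p = 0.177; two-sided exact permutation p = 0.4, where 3 against 3 cannot go below 0.1). Thus a fall of the target RNA was not called, and every direction given here is that of the libraries so labelled. It was -0.63 (adjusted p = 0.0394) without scramble replicate 3 and -0.074 (adjusted p = 0.59) without scramble replicate 1. Against shCREBBP.1027, whose libraries held 11.4, 11.7 and 12.6 FPKM, CREBBP was lower by 0.87 (adjusted p = 0.00678), and against shCREBBP.572 it was not called (-0.26, adjusted p = 0.381). EP300, on a row shared with MIR1281 (chromosome 22, 41488465 to 41576128), stood at 6.56, 7.1 and 6.16 FPKM with shCREBBP.3753 and at 24.6, 10.7 and 8.49 FPKM in scramble. These groups did not overlap, and the difference of -0.90 ± 0.29 was called (adjusted p = 0.0349; exact permutation p = 0.1). Its size was -0.47 (adjusted p = 0.0387) without scramble replicate 1, and its call ended without any 1 of the shCREBBP.3753 libraries (adjusted p = 0.0673 to 0.0986).

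Of the rows tested, 1895 were higher (16.1%) and 1556 lower (13.2%), 29.4% in all, with shCREBBP.3753 than with scramble, and the median over all rows was 0.03. Most changes were modest. A log2 difference over 0.5 in size was reached by 994 of the higher and 849 of the lower rows, one over 1 by 159 and 144, and one over 2 by 11 and 9. The libraries of the groups did not overlap on 1879 of the higher and 1506 of the lower called rows, while over all rows tested 25.0% lay wholly above and 18.3% wholly below scramble. Without scramble replicate 1, 1706 rows were higher and 1865 lower, so that the split between directions turned, and without shCREBBP.3753 replicate 3, 1242 were higher and 1109 lower.

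**Figure D1:**
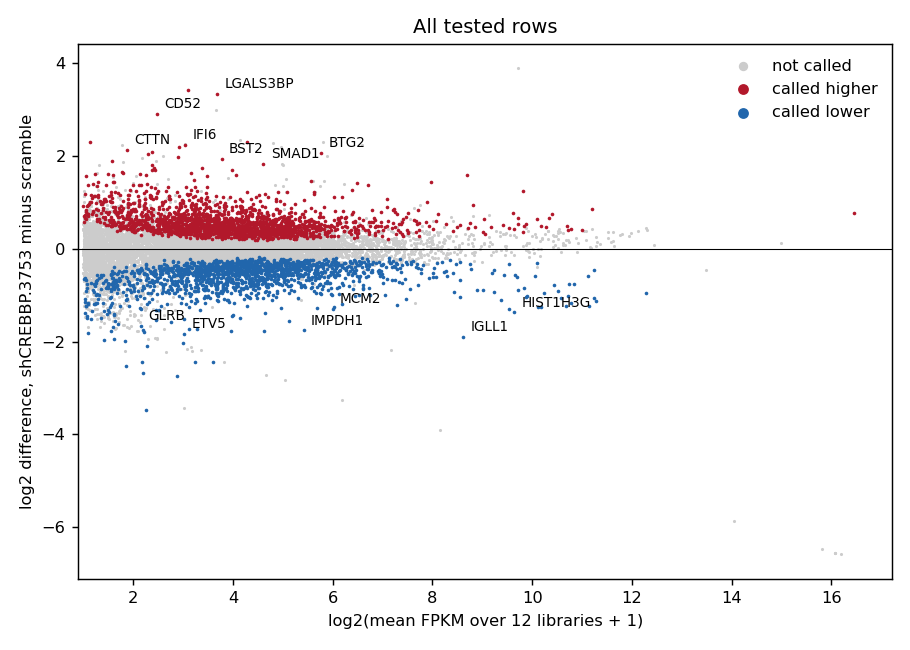
Each point is 1 of the 11757 tested rows; the x axis is log2 of the mean FPKM over the 12 libraries plus 1, and the y axis is the log2 difference of shCREBBP.3753 minus scramble. Red rows were called higher (1895), blue rows lower (1556) and grey rows were not called; the named genes reach 3.35 (LGALS3BP) and -1.89 (IGLL1), and unnamed points past them are rows outside the rule for named genes.

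Among called rows with 1 gene name on 1 tested row, above 0 in all 6 libraries and with groups that did not overlap, the largest rise was that of LGALS3BP, a secreted glycoprotein that binds galectins (chromosome 17, 76967276 to 76976061). It stood at 41.5, 38.9 and 38.7 FPKM with shCREBBP.3753 and at 2.5, 2.96 and 3.62 FPKM in scramble. The log2 difference of 3.35 ± 0.12 (adjusted p = 4.2e-08) was many times the spread within either group. CD52, a small surface glycoprotein of lymphocytes and the target of an antibody drug (chromosome 1, 26608773 to 26647014), held 17.3, 12 and 18.2 FPKM with shCREBBP.3753 and 0.896, 0.778 and 2.18 FPKM in scramble. It rose by 2.91 ± 0.28 (adjusted p = 4.9e-05). BTG2, an antiproliferative gene induced by p53 (chromosome 1, 203274542 to 203279919), held 108, 105 and 97.6 FPKM with shCREBBP.3753 and 22.7, 23.5 and 25.6 FPKM in scramble. Its rise of 2.07 ± 0.07 (adjusted p = 4.2e-08) came with an SD of 5.31 FPKM within shCREBBP.3753 and 1.48 FPKM within scramble. SMAD1, which carries signals of bone morphogenetic protein receptors to the nucleus (chromosome 4, 146402951 to 146480509), held 53.8, 51.6 and 55.1 FPKM with shCREBBP.3753 and 11.5, 15.5 and 16.5 FPKM in scramble (1.83 ± 0.12, adjusted p = 4.3e-06). That every shCREBBP.3753 library of these 4 genes lay above every scramble library was a condition of their choice. The other large rises were those of CTTN, which encodes the actin regulator cortactin (2.13), FAM9B (2.08), TXLNB (2.05), SMIM14, a small membrane protein (1.81), ABAT, the enzyme that breaks down GABA (1.73), ST3GAL5, the synthase of the ganglioside GM3 (1.71), and VNN2, a pantetheinase of leukocytes (1.70). The other 4 of the 15 largest were the antiviral genes IFI6, OAS1, BST2 and IFI44. KLRC3, of the NKG2 family of lectin-like receptors, was listed at 0 in each scramble library and at 1.58, 2.16 and 1.14 FPKM with shCREBBP.3753. To reach a mean of 1 FPKM over the 12 libraries it must also have been present with another hairpin, so its presence was not particular to shCREBBP.3753. With a pseudocount of 0.1 in place of 1, the differences of low genes were larger, at 3.79 for CTTN and 3.05 for IFI44.

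Interferon-stimulated genes rose together: 36 of 50 tested members were higher and 1 was lower, against 16.1% and 13.2% of all rows, with a median log2 difference of 0.74 beside 0.03 over all rows. The list had 62 genes, chosen with earlier results of these data known. Without any 1 of the 6 libraries 32 to 38 members were higher, with 2 lower without scramble replicate 1. Over all 16 alternatives 25 to 39 were higher, where the 25 are of 36 members tested with a mean of at least 5 FPKM. IFI6, a mitochondrial protein induced by interferon (chromosome 1, 27992572 to 27998724), held 17.6, 30.0 and 18.3 FPKM with shCREBBP.3753 and 5.01, 2.76 and 3.61 FPKM in scramble, a difference of 2.25 ± 0.22 (adjusted p = 4.9e-05). BST2, also called tetherin, which holds budding virus particles at the cell surface (chromosome 19, 17513748 to 17516457), held 32.8, 32.6 and 30.2 FPKM with shCREBBP.3753 and 6.39, 8.76 and 7.7 FPKM in scramble (1.94 ± 0.13, adjusted p = 6.0e-06). The shCREBBP.3753 libraries of both genes lay above every other library of the study. OAS1, which makes the messenger that activates RNase L (chromosome 12, 113344739 to 113357712), held 9.0, 13.3 and 14.6 FPKM with shCREBBP.3753 and 1.33, 3.61 and 2.44 FPKM in scramble (1.97 ± 0.26, adjusted p = 2.7e-04). IFI44 (chromosome 1, 79115477 to 79129763) held 3.98, 4.27 and 5.45 FPKM with shCREBBP.3753 and 0.209, 0.90 and 0.464 FPKM in scramble (1.88 ± 0.24, adjusted p = 2.3e-04). The remaining members of the 10 largest rises were IFI44L (1.56), PARP9 (1.41), IFIT3 (1.38), UBE2L6, the conjugating enzyme for ISG15 (1.17), and IFIT2 (1.15), with the list led by LGALS3BP. IFI16, a nuclear sensor of DNA, was the member that fell, at 153, 161 and 161 FPKM with shCREBBP.3753 and 182, 197 and 194 FPKM in scramble (-0.27 ± 0.07, adjusted p = 0.0106).

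**Figure D2:**
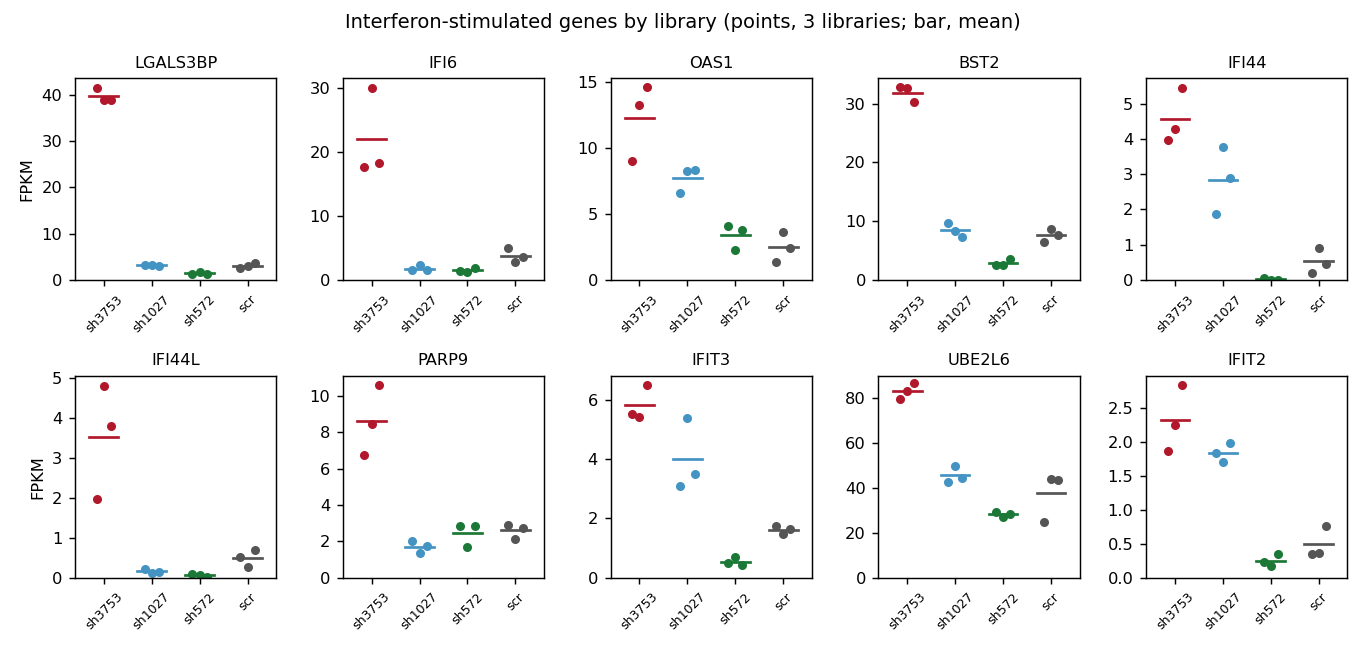
FPKM (y axis, from 0) of the 10 interferon-stimulated genes with the largest rises, in each library of shCREBBP.3753 (sh3753), shCREBBP.1027 (sh1027), shCREBBP.572 (sh572) and scramble (scr); points are libraries and bars are means of 3. In each panel the 3 shCREBBP.3753 libraries lie above the 3 scramble libraries, while OAS1, IFI44, IFIT3 and IFIT2 were also called higher with shCREBBP.1027 than in scramble, and LGALS3BP, IFI6, BST2 and IFIT3 were called lower with shCREBBP.572.

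The following members, with roles in signalling and sensing, were chosen after their values were seen. STAT2, a transcription factor of type I interferon signalling, held 12.6, 16.3 and 15 FPKM with shCREBBP.3753 and 8.37, 8.49 and 8.03 FPKM in scramble (0.74 ± 0.10, adjusted p = 3.0e-04). The groups did not overlap. The row of IRF9, which binds DNA together with STAT2, with RNF31 was not called (0.25 ± 0.10, adjusted p = 0.0809), nor was IRF7, which amplifies the response (0.05 ± 0.23, adjusted p = 0.899). The RNA sensors DDX58 and IFIH1, which encode RIG-I and MDA5, rose by 1.10 and 1.05 (adjusted p = 9.2e-05 and 2.0e-04). ISG15 itself, at 21.1, 22.3 and 20.1 FPKM with shCREBBP.3753 and 18.6, 12.8 and 15.4 FPKM in scramble, missed the threshold (0.43 ± 0.16, adjusted p = 0.0619). Of the 12 members under the level limit, 11 had a higher mean with shCREBBP.3753 than in scramble and 7 lay wholly above scramble, beside 25.0% of all tested rows. The same shares among other rows under the limit were not counted, so these counts are descriptions only. Of these 12 members LY6E was at 0 in all 6 libraries. Among them OAS3 held 2.19, 2.6 and 2.1 FPKM with shCREBBP.3753, against 0.614, 0.562 and 0.591 FPKM in scramble, and DDX60 held 0.357, 0.745 and 0.514 FPKM with shCREBBP.3753, against 0.0420, 0 and 0.0774 FPKM in scramble. MX1, a classical antiviral GTPase, reached at most 0.297 FPKM in the 6 libraries, with groups that overlapped.

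Genes of the interferon-gamma branch were higher in 7 of 10 tested members and lower in none (median 0.62), beside 16.1% and 13.2% of all rows. With shCREBBP.1027, 6 of the same 10 were also higher than in scramble. Of the 22 genes of this list, 12 were under the level limit. GBP3, a guanylate-binding protein, held 8.79, 7.19 and 8.5 FPKM with shCREBBP.3753 and 2.06, 3.59 and 3.55 FPKM in scramble (1.19 ± 0.17, adjusted p = 4.6e-04). The apolipoproteins APOL3 (1.00) and APOL2 (0.93) and the adhesion molecule ICAM1 (0.79) also rose. The interferon genes themselves were near 0: IFNA1 and IFNL1 were at 0 in all 12 libraries, IFNB1 and IFNG were at 0 in each shCREBBP.3753 library, and IFNB1 reached 0.651 FPKM at most, in a shCREBBP.572 library. Among receptors, kinases and sensors, 7 of 20 tested members rose and 5 fell (median 0.25), beside 16.1% and 13.2% of all rows. The receptor chain IFNAR1 held 12.1, 11.7 and 12 FPKM with shCREBBP.3753 and 7.5, 7.54 and 7.46 FPKM in scramble (0.61 ± 0.08, adjusted p = 3.1e-04). IL10RB (0.52) and IFNLR1 (0.42), which pair as the receptor of type III interferons, and the adaptor STING, encoded by TMEM173 (0.48), rose as well. The falls included Toll-like receptor signalling: TLR7, a sensor of single-stranded RNA, held 1.51, 1.56 and 2.15 FPKM with shCREBBP.3753 and 4.04, 5.08 and 4.92 FPKM in scramble (-1.05 ± 0.13, adjusted p = 2.0e-04), and its adaptor MYD88 fell by 0.92, the factor IRF3 by 0.57, the adaptor TICAM1 by 0.42 and the interferon receptor kinase TYK2 by 0.38. The difference of TICAM1 was -0.27 after the correction for GC content and length, and its call ended with the 6 libraries alone (adjusted p = 0.0532). AIM2, a DNA sensor, was listed at 54.9 FPKM in scramble replicate 1 and at 0 in the other 11 libraries, and was not called.

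To show the ISRE letters carried by genes that rose, promoter sequence was taken from RefSeq on GRCh38.p14, from 250 bases before to 50 after each gene's start, for LGALS3BP (minus strand, chr17:78979874-78980173), IFI6 (minus strand, chr1:27672143-27672442), BST2 (minus strand, chr19:17405581-17405880) and IFI44 (plus strand, chr1:78649539-78649838). Each is written 5′ to 3′ on the gene's strand. Capitals mark matches to the ISRE core, GAAA followed by any 2 bases and GAAA, searched on both strands; in IFI44 the capitals are the reverse complement, and in BST2 a pair of matches overlap.
LGALS3BP: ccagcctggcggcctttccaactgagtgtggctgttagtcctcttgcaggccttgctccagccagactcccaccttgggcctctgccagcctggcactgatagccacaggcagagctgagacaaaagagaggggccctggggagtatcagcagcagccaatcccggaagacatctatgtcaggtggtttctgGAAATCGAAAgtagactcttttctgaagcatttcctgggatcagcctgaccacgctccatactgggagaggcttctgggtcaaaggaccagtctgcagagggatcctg
IFI6: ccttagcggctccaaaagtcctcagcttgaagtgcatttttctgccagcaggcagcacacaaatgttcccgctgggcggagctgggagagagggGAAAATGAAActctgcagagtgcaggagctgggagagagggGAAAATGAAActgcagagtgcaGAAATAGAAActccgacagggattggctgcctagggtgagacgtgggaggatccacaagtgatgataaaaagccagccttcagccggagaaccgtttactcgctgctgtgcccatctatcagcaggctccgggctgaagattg
BST2: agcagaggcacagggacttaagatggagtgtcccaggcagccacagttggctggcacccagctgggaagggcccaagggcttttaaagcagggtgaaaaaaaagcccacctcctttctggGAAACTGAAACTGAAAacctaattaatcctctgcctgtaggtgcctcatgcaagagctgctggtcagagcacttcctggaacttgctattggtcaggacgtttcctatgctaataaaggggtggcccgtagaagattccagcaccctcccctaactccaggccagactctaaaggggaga
IFI44: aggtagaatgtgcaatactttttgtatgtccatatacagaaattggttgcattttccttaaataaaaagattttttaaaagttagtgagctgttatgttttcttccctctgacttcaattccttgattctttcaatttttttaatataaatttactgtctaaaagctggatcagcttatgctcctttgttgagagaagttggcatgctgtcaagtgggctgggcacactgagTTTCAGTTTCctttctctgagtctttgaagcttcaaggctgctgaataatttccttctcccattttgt
The match of LGALS3BP began 58 bases before the start and that of IFI44 18 bases before it, and IFI6 had 3 matches and BST2 2. Among the 10 largest rises of the list, IFI44L and IFIT3 had 2 matches each, OAS1, PARP9 and UBE2L6 had none in this window, and IFIT2 was not matched to the table. Of 27305 promoters of this length, 996 (3.65%) held the core. It was in 23 of the 38 matched interferon-stimulated genes (60.5%), in 16 of the 28 that rose (57.1%) and in 7 of the 9 that were not called (77.8%). Over all rows matched, 46 of the 220 with the core were higher (20.9%) and 22 lower (10.0%), with a median difference of 0.09, beside 1402 higher and 1059 lower of all 7622 matched rows, of which 2.89% held the core. A match is a description of letters, not of a bound site or a cause.

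Targets of p53 rose in 14 of 23 tested members and fell in 1 (median 0.45), beside 16.1% and 13.2% of all rows. Over the 16 alternatives 10 to 14 were higher and 1 to 4 lower, with 3 lower without scramble replicate 1 and 2 without scramble replicate 3. CDKN1A, the CDK inhibitor p21 (chromosome 6, 36644237 to 36655116), held 45.5, 46.6 and 51 FPKM with shCREBBP.3753 and 23.9, 29.6 and 29.7 FPKM in scramble (0.77 ± 0.11, adjusted p = 4.8e-04). The shCREBBP.3753 libraries were also above the 9.19, 9.46 and 7.89 FPKM of shCREBBP.1027 and the 15.5, 15.1 and 12.6 FPKM of shCREBBP.572. Besides BTG2, the oxidoreductase gene TP53I3, which stands on more than 1 tested row, rose by 1.10 and the sestrin SESN1 by 0.77. POLH, a polymerase that copies past DNA damage, fell by 0.40 (adjusted p = 0.00136). MDM2, the ubiquitin ligase of p53, was picked after looking at its value and was not called (-0.15 ± 0.07, adjusted p = 0.11). In the BCL2 family, the activators of apoptosis BBC3 (0.71, on a row with MIR3191), PMAIP1 (0.67) and BAK1 (0.56) rose and BCL2L12 fell (-0.38), with the other 10 of 14 members not called (median 0.15). Rises numbered 2 without shCREBBP.3753 replicate 3 and 5 without scramble replicate 3, with medians of 0.05 to 0.22 over the libraries left out, beside 16.1% of all rows higher. PMAIP1, which encodes NOXA, held 85.4, 86.2 and 83.7 FPKM with shCREBBP.3753 and 46.5, 59 and 54.3 FPKM in scramble. The call of BBC3 ended without shCREBBP.3753 replicate 3 (adjusted p = 0.0528). NF-kappaB targets rose in 5 of 13 members and fell in 1 (median 0.22), beside 16.1% and 13.2% of all rows, and 3 rose without shCREBBP.3753 replicate 2 or 3. The signalling adaptor TRAF1 (1.17), the apoptosis inhibitor BIRC3 (1.12) and the kinase MAP3K8 (0.73) rose, while TNFAIP3, the feedback inhibitor A20, held 3.76, 3.86 and 3.71 FPKM with shCREBBP.3753 and 8.85, 9.19 and 7.41 FPKM in scramble (-0.98 ± 0.10, adjusted p = 5.8e-05).

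**Figure D3:**
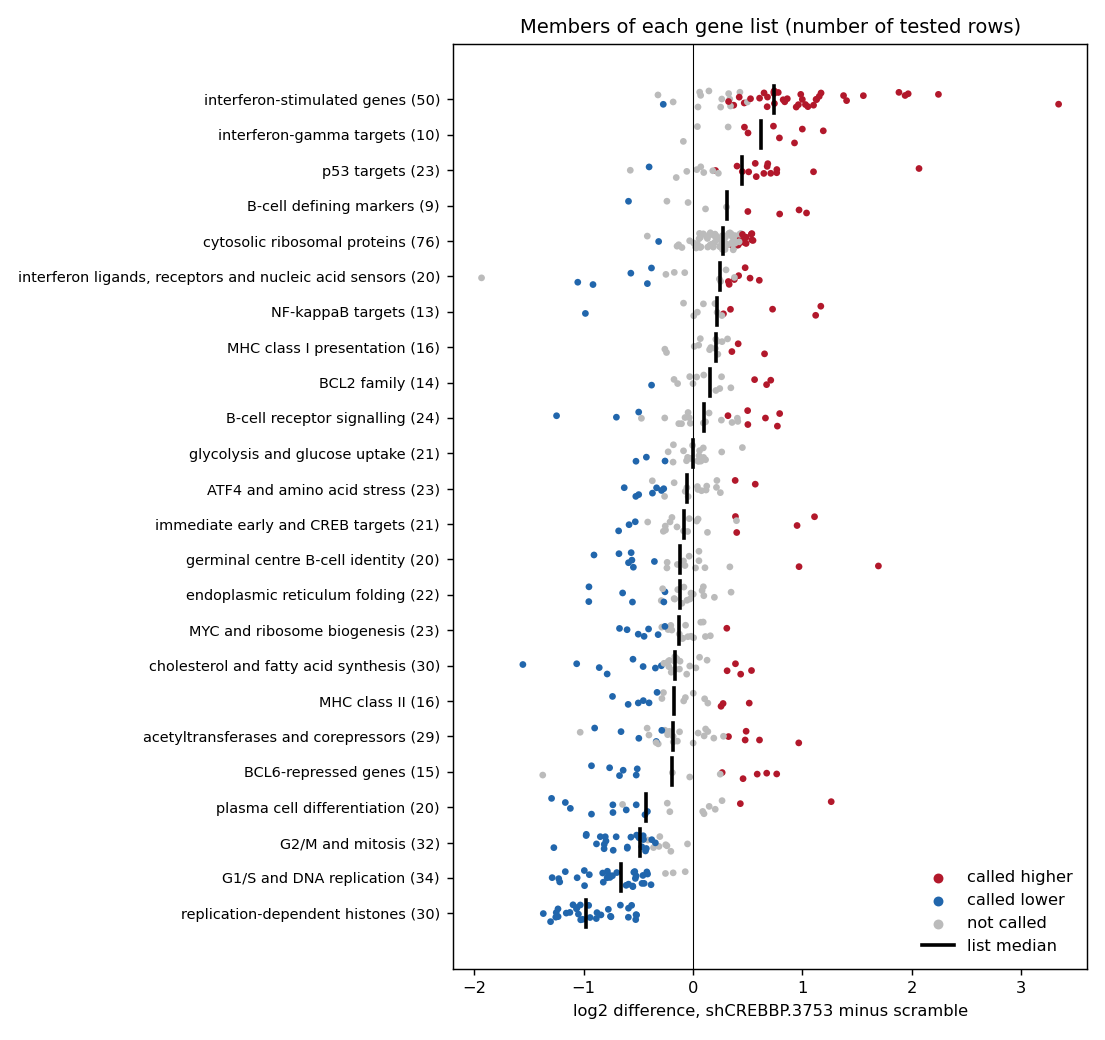
Log2 difference of shCREBBP.3753 minus scramble (x axis) for every tested member of the 24 lists with at least 5 tested rows; points are rows, red where called higher, blue where called lower and grey where not called, and black bars are list medians. Interferon-stimulated genes (median 0.74) stand at the top, and replication-dependent histones (median -0.98), G1/S genes (-0.65) and G2/M genes (-0.48) at the bottom.

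Among rows chosen in the same way, the largest fall was that of IGLL1, the lambda5 chain of the surrogate light chain of early B cells (chromosome 22, 23915259 to 23926115). It stood at 184, 179.5 and 173 FPKM with shCREBBP.3753 and at 558, 651 and 813 FPKM in scramble (-1.89 ± 0.12, adjusted p = 4.5e-06). ETV5, a transcription factor of the ETS family (chromosome 3, 185763986 to 185826901), held 2.06, 2.57 and 3.24 FPKM with shCREBBP.3753 and 9.66, 13.1 and 13 FPKM in scramble (-1.83 ± 0.16, adjusted p = 3.0e-05). IMPDH1, an enzyme of guanine nucleotide synthesis (chromosome 7, 128032293 to 128050036), held 18.3, 21.2 and 17.6 FPKM with shCREBBP.3753 and 56.4, 72.3 and 71.4 FPKM in scramble (-1.75 ± 0.10, adjusted p = 2.5e-06). That the groups of these 3 genes did not overlap was a condition of their choice. TERT, the catalytic subunit of telomerase (chromosome 5, 1253076 to 1295162), held 13.1, 11.2 and 9.9 FPKM with shCREBBP.3753 and 40.3, 29.9 and 31.3 FPKM in scramble (-1.49 ± 0.15, adjusted p = 6.2e-05). The levels of TERT were below scramble with the other hairpins too, at 7.07, 7.62 and 8.26 FPKM with shCREBBP.1027 and 15.6, 14.7 and 10.6 FPKM with shCREBBP.572. RECQL4, a DNA helicase, and TONSL, which acts at damaged replication forks, fell by 1.42 and 1.44. The others of the 15 largest falls were PYHIN1 (-1.77), of the family of IFI16, BTBD2 (-1.77), ABHD12B (-1.75), the phosphatases PTP4A3 (-1.74) and PTPRK (-1.74), GLRB, a subunit of glycine receptors (-1.66), CAV1, the coat protein of caveolae (-1.59), FASN, the fatty acid synthase (-1.56), and ZMIZ1, a coactivator (-1.51). ZMIZ1 was at 3.6, 3.29 and 1.26 FPKM with shCREBBP.3753 and 19.6, 6.79 and 5.42 FPKM in scramble, and its difference was -1.0 (adjusted p = 0.0212) without scramble replicate 1 and not called without shCREBBP.3753 replicate 3 (-1.19, adjusted p = 0.0583).

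Genes of the G1/S transition and DNA replication fell nearly throughout: 31 of 34 members were lower and none was higher (median -0.65), with 26 to 33 lower over the 16 alternatives. Of all rows, 13.2% were lower. MCM2, a subunit of the replicative helicase (chromosome 3, 127317200 to 127341294), held 32.2, 32.8 and 34.5 FPKM with shCREBBP.3753 and 75.5, 85.6 and 86.6 FPKM in scramble (-1.29 ± 0.07, adjusted p = 1.8e-06). CDT1, which loads that helicase onto DNA (chromosome 16, 88870186 to 88875666), held 9.16, 10.7 and 9.2 FPKM with shCREBBP.3753 and 27.7, 20.2 and 24.8 FPKM in scramble (-1.23 ± 0.12, adjusted p = 4.6e-05). RFC3, a subunit of the clamp loader (chromosome 13, 34392142 to 34540695), held 80.2, 81.2 and 94.6 FPKM with shCREBBP.3753 and 179, 206 and 216 FPKM in scramble (-1.22 ± 0.10, adjusted p = 2.0e-05). Each of these shCREBBP.3753 libraries was below every scramble library. The DNA polymerase subunit POLE fell by 1.17, thymidylate synthase TYMS by 1.06, MCM7 by 0.99, CDC45 by 0.99, GINS2 by 0.95, MCM5 by 0.83 and the factor E2F2 by 0.82. GINS3 and CCNE2 were among the members not called (-0.18 and -0.07). In bulk RNA, fewer cells in a phase of the cycle and less RNA per cell cannot be told apart.

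Genes of G2 and mitosis fell in 24 of 32 members and rose in none (median -0.48), beside 13.2% of all rows lower, and 18 to 31 were lower over the 16 alternatives. MKI67, the proliferation marker Ki-67, held 24.3, 24.5 and 22.6 FPKM with shCREBBP.3753 and 101, 53.5 and 37.7 FPKM in scramble (-1.27 ± 0.27, adjusted p = 0.00534), with its scramble values spread more than its shCREBBP.3753 values; without scramble replicate 1 the difference was -0.89 (adjusted p = 0.00324). PLK1, a kinase of mitotic entry (chromosome 16, 23690201 to 23724821), held 40.0, 39.9 and 38.3 FPKM with shCREBBP.3753 and 78.9, 71.8 and 69.9 FPKM in scramble (-0.88 ± 0.07, adjusted p = 1.6e-05). The kinases AURKB and BUB1 fell by 0.98 and 0.98, CDC20, an activator of the anaphase-promoting complex, by 0.80, its partner enzyme UBE2C by 0.85, the motor KIF11 by 0.80, CDCA8 by 0.81, the survivin gene BIRC5 by 0.73 and the row of BUB1B with PAK6 by 0.81.

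Replication-dependent histone genes, whose RNAs are made in S phase and mostly lack a poly(A) tail, were lower in all 30 tested rows (median -0.98), from -1.37 to -0.52, and in 22 of 30 when only the 6 libraries were fitted. The share of all rows that were lower was 13.2%. HIST1H3G held 432, 457 and 465 FPKM with shCREBBP.3753 and 1006, 1224 and 1293 FPKM in scramble (-1.37 ± 0.12, adjusted p = 2.3e-05). HIST1H2AL held 431, 417 and 384 FPKM with shCREBBP.3753 and 867, 1055 and 1142 FPKM in scramble (-1.30 ± 0.13, adjusted p = 5.8e-05). On every row of this list the shCREBBP.3753 libraries lay below the scramble libraries. HIST1H4D and the row of HIST1H3D with HIST1H2AD fell by 1.25 and 1.26; they share the interval chromosome 6, 26156439 to 26275198 with HIST1H3G, and reads of these near-identical genes may have been divided between rows.

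**Figure D4:**
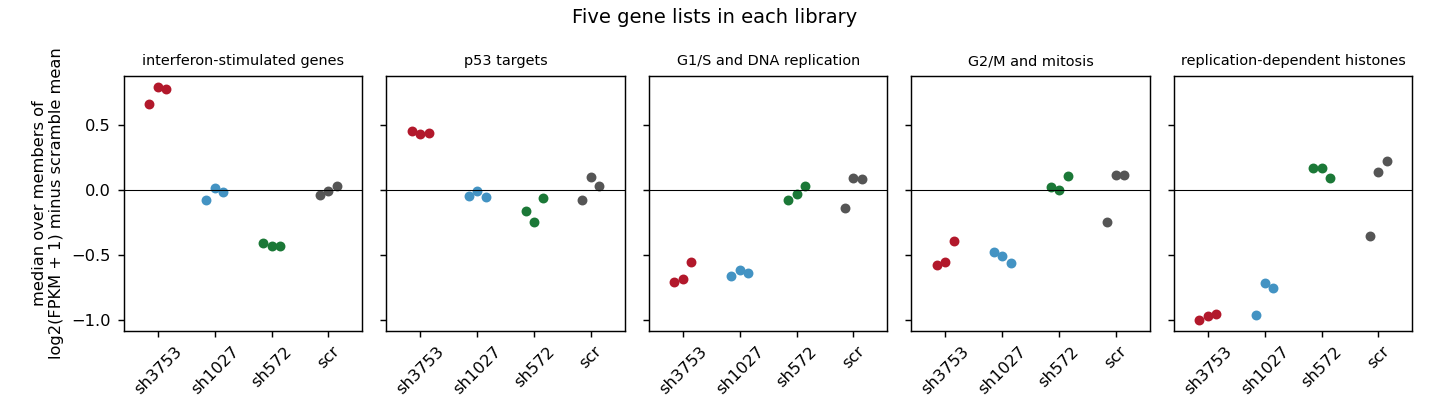
Median over the members of 5 gene lists of log2(FPKM + 1) minus the mean of the 3 scramble libraries (y axis), with 1 point per library of shCREBBP.3753 (sh3753), shCREBBP.1027 (sh1027), shCREBBP.572 (sh572) and scramble (scr). The interferon medians lie between 0.66 and 0.79 for shCREBBP.3753 and between -0.43 and -0.41 for shCREBBP.572, while the histone medians lie between -1.0 and -0.96 for shCREBBP.3753, between -0.96 and -0.71 for shCREBBP.1027 and between 0.09 and 0.17 for shCREBBP.572.

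The E2F letters of replication genes are shown for CDT1 (plus strand, chr16:88803539-88803838) and RFC3 (plus strand, chr13:33817899-33818198), from the same RefSeq table on GRCh38.p14. These had the largest falls of the G1/S list among members with a match. MCM2, with the largest fall of that list, had no match in this window or no matched promoter. Capitals mark a match to TTTGGCGC or TTTCCCGC, searched on both strands and chosen after values were seen; both capitals are reverse complements of the second.
CDT1: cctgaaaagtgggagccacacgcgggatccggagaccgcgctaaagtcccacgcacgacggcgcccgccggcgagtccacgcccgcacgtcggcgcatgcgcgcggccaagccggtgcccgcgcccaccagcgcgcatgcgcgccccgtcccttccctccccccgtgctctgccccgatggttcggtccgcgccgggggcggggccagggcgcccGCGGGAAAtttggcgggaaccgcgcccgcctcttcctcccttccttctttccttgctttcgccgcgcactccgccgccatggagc
RFC3: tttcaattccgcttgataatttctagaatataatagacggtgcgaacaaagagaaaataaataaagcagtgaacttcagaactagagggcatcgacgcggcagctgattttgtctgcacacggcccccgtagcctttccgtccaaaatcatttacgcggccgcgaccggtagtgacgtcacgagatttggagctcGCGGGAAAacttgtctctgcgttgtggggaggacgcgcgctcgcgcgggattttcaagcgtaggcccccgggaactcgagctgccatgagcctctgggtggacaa
The match began 35 bases before the start in CDT1 and 55 in RFC3. These letters stood in 631 of 27305 promoters (2.31%), in 299 of the 7622 matched to tested rows (3.92%), in 80 of the 1059 lower ones (7.55%) and in 33 of the 1402 higher ones (2.35%). In the G1/S list, 16 of 30 matched promoters held them, 15 of them among the 29 that fell. Of the 299 tested rows with the letters, 80 were lower (26.8%) and 33 higher (11%). The G1/S genes are among these rows. Rows of high transcript GC content were lower as a whole, with a median of -0.12 in the highest of 5 equal groups. The part of base composition in these counts was not tested. A match here, too, is a description of letters, not of a bound site or a cause.

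Among B-cell lists the changes were mixed. Of B-cell receptor genes, 6 of 24 rose and 3 fell (median 0.10), beside 16.1% and 13.2% of all rows. The receptor chains CD79A and CD79B rose by 0.79 and 0.50, and the phospholipase PLCG2, by far the most abundant of the list in FPKM, held 1429, 1424 and 1413 FPKM with shCREBBP.3753 and 722, 941 and 1066 FPKM in scramble (0.66 ± 0.15, adjusted p = 0.00596). NFATC1, a calcium-driven factor with more than 1 tested row, fell by 1.25 and the kinase PIK3CD by 0.70. Germinal centre identity genes rose in 2 of 20 members and fell in 7 (median -0.12). TNFRSF14, the receptor HVEM (chromosome 1, 2487208 to 2496130), held 8.93, 7.48 and 6.82 FPKM with shCREBBP.3753 and 1.35, 1.55 and 2.22 FPKM in scramble (1.70 ± 0.16, adjusted p = 3.7e-05). The remodeller SMARCA4 (-0.91), the B-lineage factors TCF3 (-0.68) and EBF1 (-0.59) and the coactivator POU2AF1 (-0.57) fell, the last with -0.35 (adjusted p = 0.00805) without scramble replicate 1. Plasma cell genes fell in 10 of 20 members and rose in 2 (median -0.43). PRDM1, the master factor of plasma cells, held 1.78, 1.59 and 1.44 FPKM with shCREBBP.3753 and 4.09, 4.33 and 3.46 FPKM in scramble (-0.93 ± 0.13, adjusted p = 4.5e-04), and DERL3 (-1.29), CREB3L2 (-1.17) and TNFRSF13B (-1.12), of secretion and survival, fell too. Against that direction, SLAMF7, a surface receptor of plasma and NK cells (chromosome 1, 160708847 to 160724713), held 183, 177 and 175 FPKM with shCREBBP.3753 and 74.1, 73.8 and 72.6 FPKM in scramble (1.26 ± 0.06, adjusted p = 1.3e-06). Among 15 genes repressed by BCL6, 5 rose and 6 fell (median -0.19); CDKN1B (0.67), ID2 (0.59) and S1PR1 (0.46) were among the rises, and NFKB1 (-0.76), MYC (-0.67) and CHEK1 (-0.64) among the falls. The rises of this list numbered 3 without shCREBBP.3753 replicate 2 or 3, and its median was 0.00 without scramble replicate 1, -0.03 without shCREBBP.3753 replicate 2 and -0.30 without shCREBBP.3753 replicate 3. Relative to the scramble mean, the median of the list was -0.04, -0.46 and -0.04 in shCREBBP.3753 replicates 1, 2 and 3, lowest in replicate 2. The call of S1PR1 ended without any 1 of the 6 libraries except scramble replicate 1 (adjusted p = 0.0519 to 0.117), and ID2 was at 0.38 without scramble replicate 1.

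Antigen presentation genes gave mixed calls against scramble. In MHC class II, 6 of 16 members fell and 3 rose (median -0.18), beside 13.2% and 16.1% of all rows, so the share of rises is near that of all rows. Only 2 to 4 were lower without any 1 library other than scramble replicate 1, without which 7 were. None was called higher by limma without shCREBBP.3753 replicate 2 or 3 (3 at an unadjusted p under 0.05 in each). CIITA, the master activator of the class, held 17.7, 17.5 and 15.5 FPKM with shCREBBP.3753 and 35.7, 25.4 and 26.3 FPKM in scramble (-0.74 ± 0.13, adjusted p = 0.0020). HLA-DRA held 316, 309.8 and 338 FPKM with shCREBBP.3753 and 335, 517 and 543 FPKM in scramble, with overlapping groups (-0.50 ± 0.16, adjusted p = 0.033), and was not called without any 1 library other than scramble replicate 1. HLA-DPB1 (-0.59), HLA-DPA1 (-0.45), HLA-DMA (-0.40) and the invariant chain CD74 (-0.33) were the other falls, and CTSS (0.51), RFX5 (0.28) and HLA-DOA (0.26) the rises. The calls of HLA-DPA1 and CD74 ended in the same cases as that of HLA-DRA (adjusted p up to 0.154). Without shCREBBP.3753 replicate 2 or 3 the calls of CTSS (adjusted p = 0.0514 and 0.0544) and RFX5 (adjusted p = 0.0599 and 0.0648) ended, and CTSS was at 0.31 without scramble replicate 1. The call of HLA-DMA ended without shCREBBP.3753 replicate 1 (adjusted p = 0.0723), and that of HLA-DOA without any 1 library other than scramble replicate 3 (adjusted p = 0.0675 to 0.0945). In MHC class I, 3 of 16 members rose and none fell (median 0.21): the row of HLA-E with HLA-L (0.65), the light chain B2M (0.41) and the peptide trimmer ERAP2 (0.36). The share of rises is near the 16.1% of all rows. With 1 library left out, 1 to 4 members rose, with 1 without shCREBBP.3753 replicate 2 or 3, and 1 fell without scramble replicate 1. The call of B2M ended without any 1 of the shCREBBP.3753 libraries (adjusted p = 0.0565 to 0.108), with 0.25 without scramble replicate 1, and that of ERAP2 without shCREBBP.3753 replicate 2 or 3 (adjusted p = 0.137 and 0.136) or scramble replicate 1 (0.21, adjusted p = 0.11). Reads of polymorphic HLA paralogs may have been divided between rows.

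Several lists of growth and metabolism depended on scramble replicate 1. Their counts stand beside 16.1% of all rows higher and 13.2% lower. Of MYC and ribosome biogenesis genes 7 of 23 fell and 1 rose (median -0.13), with 16 lower without scramble replicate 1; MYC held 114, 116 and 103 FPKM with shCREBBP.3753 and 179, 183 and 171 FPKM in scramble (-0.67 ± 0.07, adjusted p = 5.9e-05). Of cholesterol and fatty acid synthesis genes 8 of 30 fell and 4 rose (median -0.17). Of these, 13 were lower without scramble replicate 1, and 1 to 3 were higher with any 1 library left out, the 1 without shCREBBP.3753 replicate 3. The fatty acid branch held the largest falls, with FASN at 19.7, 18.2 and 12.8 FPKM with shCREBBP.3753 and 100.2, 38.8 and 33.7 FPKM in scramble (-1.56, and -1.08 without scramble replicate 1, adjusted p = 0.00144), the elongase ELOVL6 at -1.06 and the desaturase SCD at -0.86, while the sterol enzyme MSMO1 (0.54) rose. ELOVL6 stands on more than 1 tested row. Endoplasmic reticulum folding genes fell in 6 of 22 members (11 without scramble replicate 1; median -0.12), led by the stress sensor ERN1 and the chaperone partner SDF2L1, each at -0.95. ATF4 and amino acid stress genes fell in 7 of 23 and rose in 2 (median -0.06), with 4 falls without shCREBBP.3753 replicate 2, and medians of -0.19 without scramble replicate 1 and 0.07 without scramble replicate 3. Glycolysis genes fell in 3 of 21, near the 13.2% of all rows, with 7 falls without scramble replicate 1 and a median of -0.00. Acetyltransferases and corepressors rose in 5 of 29 and fell in 5 (median -0.18), shares near the 16.1% and 13.2% of all rows. With 1 library left out 3 to 6 of them rose and 2 to 7 fell: 2 fell without shCREBBP.3753 replicate 1 or 2, 3 without shCREBBP.3753 replicate 3 or scramble replicate 2, and 7 without scramble replicate 1 or 3, where replicate 1 left a median of -0.09. Among them the coactivator NCOA3 held 30.1, 28.5 and 29.8 FPKM with shCREBBP.3753 and 14.7, 14.2 and 14.8 FPKM in scramble (0.97 ± 0.06, adjusted p = 4.5e-06). Of immediate early and CREB targets 4 of 21 rose and 3 fell (median -0.09), shares near the 16.1% and 13.2% of all rows. Falls called by limma numbered 0 without shCREBBP.3753 replicate 3 (3 at an unadjusted p under 0.05) and 1 without scramble replicate 2 or 3. The median of this list was -0.20 to -0.02 with 1 library left out. The rises were led by RGS2, an inhibitor of G-protein signalling (1.11), and JUN (0.95). Of 76 cytosolic ribosomal protein rows, 15 rose, beside the 16.1% of all rows, and 1 fell (median 0.28). However, 1 to 27 rose with 1 library left out and 53 after quantile normalization. B-cell defining markers rose in 4 of 9 and fell in 1 (median 0.31), and no member of the lists of T and NK, myeloid, and fibroblast and epithelial markers was called (2, 3 and 1 tested). PRF1, of the T and NK markers, stayed not called in 11 of 16 alternatives and was called higher in the rest, among them that without scramble replicate 3.

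The same genes were set against the other hairpins. Comparisons with them share the shCREBBP.3753 libraries with the comparison against scramble and are given side by side. Against scramble, shCREBBP.1027 had 1938 rows higher (16.5%) and 2671 lower (22.7%), and shCREBBP.572 had 1057 higher (8.99%) and 1266 lower (10.8%). Against shCREBBP.1027, 2979 rows were higher (25.3%) and 1796 lower (15.3%), 40.6% in all, with shCREBBP.3753; after upper-quartile scaling these were 2511 and 2599, so the balance of directions depends on the scaling. Against shCREBBP.572, 2111 rows were higher (18.0%) and 1726 lower (14.7%), 32.6% in all, and 1994 and 2201 after upper-quartile scaling. In the same direction against scramble and both other hairpins, 699 rows were called higher (5.95%) and 408 lower (3.47%). With these as measure, the 5 leading rises were LGALS3BP, CD52, IFI6, SMAD1 and BST2. LGALS3BP held 41.5, 38.9 and 38.7 FPKM with shCREBBP.3753, against 3.33, 3.32 and 3.11 FPKM with shCREBBP.1027 and 1.24, 1.77 and 1.21 FPKM with shCREBBP.572, and differed by 3.26 ± 0.12 and 4.09 ± 0.12 (adjusted p = 2.3e-08 and 7.7e-09). SMAD1 held 12.3, 13.3 and 12.2 FPKM with shCREBBP.1027 and 14.3, 13.1 and 12 FPKM with shCREBBP.572, both close to scramble, and differed by 2.00 ± 0.12 and 1.95 ± 0.12 (adjusted p = 6.0e-07 and 8.4e-07). The leading falls were GLRB, TOX2, MESDC1, ZMIZ1 and AKT1S1. GLRB held 0.225, 0.219 and 0.284 FPKM with shCREBBP.3753, against 4.66, 4.92 and 4.37 FPKM with shCREBBP.1027, 5.9, 5.58 and 6.32 FPKM with shCREBBP.572 and 2.22, 3.48 and 3.19 FPKM in scramble. AKT1S1, which encodes the mTORC1 inhibitor PRAS40, held 10.1, 8.35 and 8.05 FPKM with shCREBBP.3753, against 27.3, 25.5 and 25.6 FPKM with shCREBBP.1027, 21.3, 17.5 and 19.8 FPKM with shCREBBP.572 and 17.2, 20.2 and 19.2 FPKM in scramble. TOX2, an HMG-box factor, fell by 1.16 against scramble and by 0.75 (adjusted p = 0.0119) without scramble replicate 1, and its call ended without shCREBBP.3753 replicate 3 (-1.01, adjusted p = 0.0543).

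The list counts stand beside 25.3% of all rows higher and 15.3% lower against shCREBBP.1027, and 18.0% and 14.7% against shCREBBP.572. By list, interferon-stimulated genes were higher in 38 of 50 members and lower in none against shCREBBP.1027 (median 0.64), and higher in 43 and lower in 1 against shCREBBP.572 (median 1.04). Relative to scramble, 12 of them were higher and 12 lower with shCREBBP.1027, and 1 and 23 with shCREBBP.572. Interferon-gamma targets were higher in 4 of 10 members and lower in 1 against shCREBBP.1027 (median 0.12). Against shCREBBP.572, 7 of them were higher and 1 lower (median 0.99). With shCREBBP.1027 itself, 6 of the 10 were higher than in scramble and none was lower (median 0.52). With shCREBBP.572, 4 were lower than in scramble and none was higher. Targets of p53 were higher in 14 of 23 and lower in 3 against shCREBBP.1027 (median 0.47), and higher in 13 and lower in 2 against shCREBBP.572 (median 0.56). Relative to scramble, 5 of them were higher and 7 lower with shCREBBP.1027, and 6 and 6 with shCREBBP.572. CDKN1A differed from shCREBBP.1027 by 2.31 ± 0.11 and from shCREBBP.572 by 1.66 ± 0.11 (adjusted p = 1.8e-07 and 1.5e-06). The growth lists separated the hairpins in another way. Against shCREBBP.1027, 7 of 34 G1/S genes were lower and 5 higher (median -0.06), 9 and 5 of 32 G2/M genes (median -0.09) and 6 and 1 of 30 histone rows (median -0.13). Of all rows, 15.3% were lower and 25.3% higher in that comparison. Against shCREBBP.572, 30 G1/S genes were lower and 1 higher (median -0.64), 23 and 1 G2/M genes (median -0.58), and 28 and 0 histone rows (median -1.11). With shCREBBP.1027 itself, 28 G1/S genes, 21 G2/M genes and 30 histone rows were lower than in scramble, and none was higher. With shCREBBP.572 itself, 3, 3 and 1 were lower and 4, 4 and 0 higher. MCM2, as an example, held 32.2, 32.8 and 34.5 FPKM with shCREBBP.3753, 49.5, 49.3 and 48.8 FPKM with shCREBBP.1027, 85.8, 90.6 and 85.6 FPKM with shCREBBP.572 and 75.5, 85.6 and 86.6 FPKM in scramble. MHC class II genes, with mixed calls against scramble, were higher with shCREBBP.3753 in 13 of 16 members against shCREBBP.1027 (median 0.62) and in 10 against shCREBBP.572 with 1 lower (median 0.56). These other hairpins were themselves below scramble, in 13 members with shCREBBP.1027 and 12 with shCREBBP.572, with none higher. HLA-DRA held 316, 309.8 and 338 FPKM with shCREBBP.3753, 171, 201 and 196 FPKM with shCREBBP.1027 and 219, 199 and 239 FPKM with shCREBBP.572. Class I genes were higher in 11 of 16 members against shCREBBP.1027 and in 12 against shCREBBP.572, and lower in none. Relative to scramble, 9 of the 16 were lower with shCREBBP.1027 and 10 with shCREBBP.572, and none was higher. Glycolysis genes were higher in 19 of 21 and lower in none against shCREBBP.1027, and higher in 6 and lower in 2 against shCREBBP.572. With shCREBBP.1027 itself, 18 were lower than in scramble and none higher, and with shCREBBP.572, 6 were lower and 1 higher. Cholesterol and fatty acid synthesis genes were higher in 4 of 30 and lower in 6 against shCREBBP.1027 (median -0.06), and higher in 18 and lower in 2 against shCREBBP.572 (median 0.52). Relative to scramble, 10 were lower and 5 higher with shCREBBP.1027, and 22 were lower and none higher with shCREBBP.572. ATF4 and amino acid stress genes were lower in 12 of 23 members against each, with 4 and 2 higher. Compared with scramble, 13 of them were higher and 4 lower with shCREBBP.1027, and 10 higher and none lower with shCREBBP.572.

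Across the genome the changes were not even by base composition, over the 11278 rows (95.9%) matched by name to transcripts. In 5 equal groups of rows, from low to high transcript GC content, the median difference from scramble was 0.12, 0.08, 0.06, -0.01 and -0.12. Without scramble replicate 1 the same medians were 0.07, 0.05, 0.03, -0.03 and -0.13, and after a correction for GC content and length, chosen after seeing the data, 0.05, 0.03, 0.03, 0.00 and 0.01. With that correction 1854 rows were higher and 1488 lower. On chromosome 19, 7.22% of 817 rows were higher and 20.4% lower (median -0.10), while 22.4% of 504 rows on chromosome 5 and 22.3% of 372 rows on chromosome 14 were higher. The part of base composition in single results was not tested beyond the correction.

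**Figure D5:**
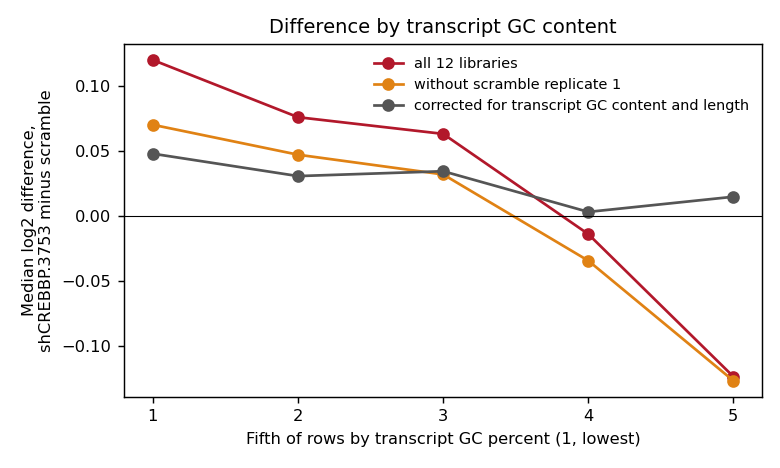
Median log2 difference of shCREBBP.3753 minus scramble (y axis) in 5 equal groups of tested rows by transcript GC percent (x axis, 1 lowest), with all 12 libraries (red), without scramble replicate 1 (orange) and after the correction for GC content and length (grey). The red line runs from 0.12 to -0.12 and the grey line stays between 0.00 and 0.05.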

How the data were processed

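The authors deposited 1 table with a value per library for 24181 assembled loci, 725 of them with several gene names, and every value column was used. The deposited values were read as FPKM from their range and from Cufflinks being named; the table itself gives no unit. Per the submitters' processing notes, CASAVA 1.8, TopHat2, Cufflinks and hg19 are named, with no role or order; per the labels' protocols, libraries came from a stranded total RNA kit with removal of ribosomal RNA. The annotation and the use of strand in assigning reads are not stated in the labels, so overlapping and antisense genes are uncertain. Coordinates are the loci's intervals on hg19, counted from 1, and can be wider than the gene.

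Low values gave depth relative to scramble replicate 1, with 17.2% to 30.7% of low ratios on whole-read steps (tolerance 0.01 on the log2 scale) against 1.09% to 1.54% at other offsets, too few to recover reads for a count test. The 11757 rows whose mean over 12 libraries reached 1 FPKM were tested as log2(FPKM + 1), using limma 3.58.1 (R 4.3.3), a variance trend, 1 mean per group and Benjamini-Hochberg adjustment over all rows of a contrast, at 0.05. The fit was tested on simulated data. Of the tested rows, 646 were at 0 in at least 1 of the 6 libraries. CREBBP and EP300 also had exact permutation tests over 20 splits.

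The 27 gene lists, the members and the rules were chosen with earlier results of these data known. Lists are described by counts and medians, and a gene with several tested rows by the highest of them. Named were CREBBP and EP300, the 15 called rows per direction with the largest differences, with 1 name on 1 tested row, above 0 in the 6 libraries and with groups apart, up to 5 rows per direction at 0 in one group, up to 4 called members per list and direction (10 for 4 lists) or the member with the smallest p, 5 rises and 5 falls called against all 3 other groups, and up to 5 per direction called the opposite way with another hairpin. Genes of small RNAs were not named. Some genes that the rule names are not reported here. GC content and length came from GENCODE transcripts and promoters from RefSeq (GRCh38.p14). Alternatives were another pseudocount, filter and scaling, no trend, array weights, the 6 libraries alone, a replicate block, each library left out, and a correction for GC content and length.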

Additional observations from a re-analysis of the deposited data

Results flagged for a closer look

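Several genes were called one way with shCREBBP.3753 and the other way with another hairpin, each against scramble, and the difference between the hairpins was itself called by limma. In all, 439 rows were higher with shCREBBP.3753 and lower with another hairpin in this sense, and 160 lower and higher, of 11757 tested; the comparisons share the scramble libraries. Among rises, LGALS3BP differed from shCREBBP.572 by 4.09, and its levels were 41.5, 38.9 and 38.7 FPKM with shCREBBP.3753 and 1.24, 1.77 and 1.21 FPKM with shCREBBP.572. IFI6 differed from shCREBBP.1027 by 3.01 and from shCREBBP.572 by 3.17, BST2 from shCREBBP.572 by 3.08, C10orf10 from shCREBBP.572 by 2.02 and IFIT3 from shCREBBP.572 by 2.15. C10orf10 held 94.3, 84.9 and 85.7 FPKM with shCREBBP.3753, 22.8, 18.1 and 22.5 FPKM with shCREBBP.572 and 26.2, 32.4 and 36.8 FPKM in scramble. Among falls, ABHD12B differed from shCREBBP.1027 by -2.46, GLRB from shCREBBP.1027 by -2.18 and from shCREBBP.572 by -2.48, C16orf91 from shCREBBP.1027 by -1.69, TLR7 from shCREBBP.1027 by -1.49 and AKT1S1 from shCREBBP.1027 by -1.47. ABHD12B held 0.461, 0.836 and 0.625 FPKM with shCREBBP.3753, 7.45, 7.8 and 8.79 FPKM with shCREBBP.1027 and 4.77, 5.38 and 3.53 FPKM in scramble, and C16orf91 held 12.3, 9.95 and 11.1 FPKM with shCREBBP.3753, 38, 38.6 and 37.6 FPKM with shCREBBP.1027 and 21, 24.7 and 27.1 FPKM in scramble.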

How the results depend on the processing

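Of 173 called named genes, 134 were called in every one of the 16 alternatives that kept their row, and none of the 177 named genes changed direction in any. The most calls, 33, were lost when only the 6 libraries were fitted, with 1209 rows higher and 968 lower, and 29 were lost without shCREBBP.3753 replicate 3. Array weights gave 2443 lower rows and 2398 higher. With 1 library left out, 1242 to 2016 rows were higher and 1109 to 1865 lower. The difference of CREBBP ranged from -0.63 to -0.074 with 1 library left out, and was called only without scramble replicate 3 (-0.63). That of EP300 ranged from -1.19 to -0.47, and its call was lost without the filter on low values and with the 6 libraries alone (-0.90 in both, adjusted p = 0.0793 and 0.122). Against shCREBBP.1027, quantile normalization gave 2629 higher and 2601 lower rows, and against shCREBBP.572 2181 and 2069. A replicate block gave 1949 higher and 1634 lower rows than scramble and ended 3 named calls, those of CD74, IDI1 and RPL8. Deviations of libraries with the same number correlated at -0.02 to 0.06 between shCREBBP.3753 and scramble, and those with other numbers at -0.08 to 0.03. With 3 libraries a group, these values cannot show whether libraries with the same number share a batch. With a mean of at least 5 FPKM no myeloid, fibroblast or epithelial marker was left to test. Depth is known only relatively, which limits statements on rows of low level.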
